A study of Homo sapiens with 12 samples.

Results

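The genes described here are 9 human lysophospholipid acyltransferases: LPCAT1, LPCAT2, LPCAT3, LPCAT4, MBOAT1, MBOAT2, AGPAT1, AGPAT2 and AGPAT3. They were measured by 14 of the 41000 gene probes of an Agilent whole-genome array, and are 9 of the 16557 genes to which these probes could be assigned. LPCAT1 was chosen from its own measured change, because 2 of its probes moved in opposite directions between the conditions compared below, and its values are therefore given as a description with no test. The other 8 genes were chosen by name, as relatives of LPCAT1, and their probes carry the p-values of the fit over all probes. Every probe is reported separately, since a probe reads only the transcripts that hold its target, and probes of a gene are not replicates of each other. The probe LPCAT1 A_24_P941947 is annotated in the files to a cDNA clone record and not to a RefSeq transcript, and its gene name comes from the study. The other 13 probes were named through their RefSeq accession.

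Expression was compared between 6 arrays labelled control and 6 arrays labelled SRSF2 over-expression. All 12 arrays come from H358/Tet-On/SRSF2, a single clone of H358 human lung adenocarcinoma cells in which doxycycline switches on SRSF2, a splicing factor of the SR protein family. The SRSF2 over-expression arrays are labelled as 24 h of doxycycline at 1 µg/mL, and the control arrays carry the treatment label none. Each of 3 slides held 2 arrays of both conditions. The study describes 3 labelings per condition with 2 arrays each, so that part of the spread between arrays is technical, and p-values measure only the spread between these arrays.

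Lysophospholipid acyltransferases attach a fatty acid to a lysophospholipid and so rebuild a complete membrane phospholipid. Together with phospholipase A2, which removes a fatty acid, they form the Lands cycle, which exchanges the acyl chains of existing phospholipids. The AGPAT enzymes act earlier, in de novo synthesis, and turn lysophosphatidic acid into phosphatidic acid, the precursor of glycerophospholipids and of triglycerides. In the lung, LPCAT1 of alveolar type II cells makes the dipalmitoyl phosphatidylcholine of surfactant.

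The labels were first set against the SRSF2 probe, A_23_P77776. All levels here are log2 signals from which the 75th percentile of the array was subtracted. On this scale SRSF2 ran from 3.74 to 4.03 (median 3.96) in the controls and from 2.29 to 2.56 (median 2.51), below every control, under the over-expression label. The log2 fold change of -1.46 (SE 0.063, limma adjusted p = 1.68e-09, where SE is the standard error of the fit) ran opposite to the label, so every direction below is that of the arrays as labelled. Whether this probe reads the transcript of the induced SRSF2 construct, or only that of the cell's own gene, was not tested. Between 54.2% and 68.0% of the spots on an array were well above background. The probes of the 5 epithelial markers EPCAM, CDH1, KRT8, KRT18 and KRT19 included, for each gene, at least 1 above background on all 12 arrays. The log2 of their summed signals, to which the brightest probes contribute most, was 9.80 to 10.03 in the controls and 8.95 to 9.82 in the other condition. The fibroblast markers COL1A2, COL3A1 and DCN, the leukocyte marker PTPRC and the endothelial marker CDH5 were above background on 0 arrays, while the endothelial marker PECAM1 was above it on all 12. KRT19 (log2 fold change -0.50) and PECAM1 (-0.46) fell and EPCAM (0.21) rose with the condition, and their part in the results was not tested. In RNA from whole cultures, a change in every cell cannot be told apart from a change in the number of cells that hold the transcript.

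Of the 14 acyltransferase probes, 13 were above background on enough arrays to be tested. Without LPCAT1 this left 10 probes of 8 genes, of which 4 were up-regulated, 4 were down-regulated and 2 did not pass a limma adjusted p of 0.05. Over all 24330 probes tested, 57.7% passed this threshold, 29.7% up and 28% down, so that 8 of 10 stands against a background in which most probes passed. No acyltransferase probe outside LPCAT1 changed by 2-fold or more at that threshold, where 7% of all probes did (3.68% up and 3.31% down). The median log2 fold change of the 10 probes was -0.053, beside 0.011 over all probes, and the median size of change was 0.35, beside 0.30. The arrays of the conditions did not overlap for 3 of the 10 probes, and for 40.2% of all probes.

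**Figure D1:**
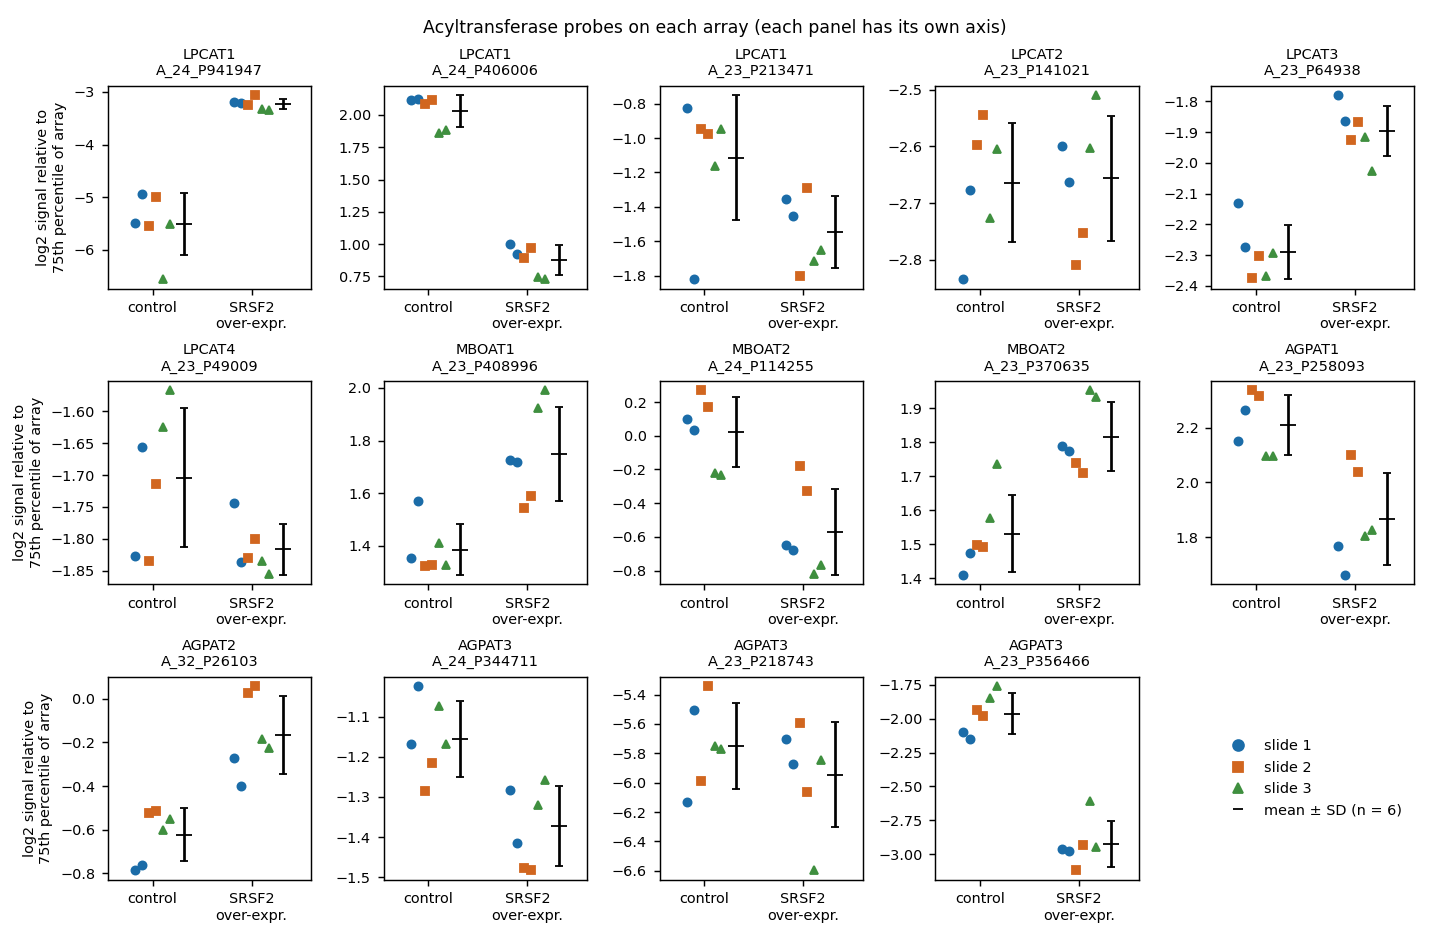
Level of the 14 acyltransferase probes (log2 signal minus the array's 75th percentile) for the 6 control arrays and the 6 arrays labelled SRSF2 over-expression; colours and symbols give the slide, and black bars give mean ± SD (n = 6). LPCAT1 A_24_P941947 lies higher and LPCAT1 A_24_P406006 lower on all arrays labelled SRSF2 over-expression, whereas LPCAT2 overlaps throughout.

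LPCAT1 was read by 3 probes, which gave 3 different pictures. Probe A_24_P406006, annotated to the RefSeq transcript, was above background on all arrays. Its log2 level was 1.86 to 2.13 on the control arrays (median 2.10) and 0.73 to 1.00 (median 0.91) under the over-expression label, with a gap of 0.86 between the conditions. This is a log2 fold change of -1.16 (SE 0.07), a level 2.23-fold lower. The change was nearly the same on the 3 slides, at -1.16, -1.17 and -1.14. In processed intensities, that is, before scaling, the control arrays gave 3475 to 4735 and the others 1738 to 2084.

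Probe LPCAT1 A_24_P941947, annotated to the cDNA clone, was dim. It was well above background on 1 of the 6 control arrays, control 2, and on 6 of the 6 arrays labelled SRSF2 over-expression. Its log2 level ran from -6.56 to -4.93 (median -5.49) and from -3.34 to -3.06 (median -3.23) respectively, and the conditions were 1.59 apart. The measured log2 fold change was 2.27 (SE 0.22), with 2.01, 2.11 and 2.70 on the 3 slides. Because the control signal was mostly not well above background, a bound is given as well. For it, each control value was raised to the lowest processed signal well above background on its array. The probe was then at least 2.88-fold higher, a bound that holds only for the background subtraction of the processed intensities. Processed intensities were 11.4 to 34.4 on the control arrays and 104 to 127 on the others. The median intensity of the same spots, from which no background had been subtracted, was 72 to 93 and 147 to 178.5. Both scales separated the conditions completely, but the fold depended on the background, with 1.85-fold for the spot intensity and 1.10-fold after normexp correction.

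The third probe, LPCAT1 A_23_P213471, shares its RefSeq accession with A_24_P406006 but overlapped between conditions. Its control values were -1.82 to -0.82 (median -0.96), and those of the arrays labelled SRSF2 over-expression were -1.80 to -1.29 (median -1.55). The log2 fold change was -0.43 (SE 0.16), with -0.08, -0.58 and -0.63 on the 3 slides. The overlap came from a single array: control 2 lay at -1.82, while the other control arrays lay between -1.16 and -0.82, above every array of the other condition. Without control 2 the log2 fold change was -0.57.

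**Figure D2:**
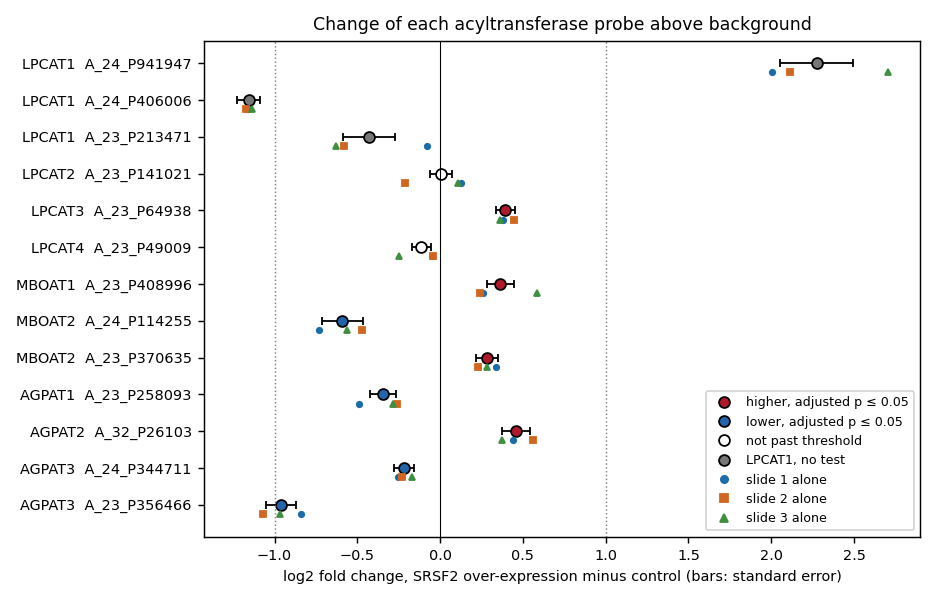
Log2 fold change (arrays labelled SRSF2 over-expression minus control arrays) of the 13 acyltransferase probes above background, with the standard error as bars and the value of each slide alone as small symbols; dotted lines mark 2-fold. LPCAT1 spans both ends of the plot, at 2.27 and -1.16, and the 10 probes of the other genes lie between -0.96 and 0.46.

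LPCAT2 and LPCAT4 did not pass the threshold. LPCAT2, which also makes platelet-activating factor in inflammatory cells, had 1 probe, A_23_P141021, with log2 levels of -2.83 to -2.54 (median -2.64) on the control arrays and -2.81 to -2.51 (median -2.63) on the others. The ranges nearly coincided, and the log2 fold change was 0.0076 (SE 0.066, limma adjusted p = 0.931). Its sign changed with the scaling, to -0.016 on the median of the array and -0.0043 with quantile normalization. LPCAT4, which acylates lysophosphatidylcholine and lysophosphatidylethanolamine, had probe A_23_P49009 with control values of -1.83 to -1.57 (median -1.69) and values of -1.85 to -1.74 (median -1.83) in the other condition. The conditions overlapped, and the log2 fold change of -0.11 (SE 0.055, limma adjusted p = 0.0978) did not pass the threshold and was 0.096 after scaling on spike-in controls.

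LPCAT3, the main enzyme placing polyunsaturated fatty acids in phosphatidylcholine, was up-regulated. Probe A_23_P64938 gave -2.37 to -2.13 (median -2.30) in the controls and -2.03 to -1.78 (median -1.89) under the over-expression label. The conditions did not overlap, although the gap was only 0.10. The log2 fold change was 0.39 (SE 0.056, limma adjusted p = 5.92e-05), with 0.38, 0.44 and 0.36 on the 3 slides. After normexp background correction it was 0.011 (limma adjusted p = 0.984).

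MBOAT1, an acyltransferase of lysophosphatidylserine and lysophosphatidylethanolamine, had 1 probe, A_23_P408996, which was up-regulated. It ran from 1.32 to 1.57 on the control arrays (median 1.34) and from 1.54 to 1.99 on the others (median 1.72). The conditions overlapped only through control 2, at 1.57, since the other control arrays did not exceed 1.41. The log2 fold change was 0.36 (SE 0.082, limma adjusted p = 0.00199) and 0.40 without control 2. It was larger on slide 3 (0.59) than on slides 1 and 2 (0.26 and 0.24).

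MBOAT2, which acts on lysophosphatidylethanolamine and lysophosphatidylcholine, had 2 probes, and they moved in opposite directions. Probe MBOAT2 A_23_P370635 was up-regulated, with control values of 1.41 to 1.74 (median 1.49) and values of 1.71 to 1.95 (median 1.78) in the other condition. Its log2 fold change was 0.29 (SE 0.066, limma adjusted p = 0.00238). Probe MBOAT2 A_24_P114255 was down-regulated, with control values of -0.23 to 0.27 (median 0.068) and values of -0.82 to -0.18 (median -0.66) in the other condition. Its log2 fold change was -0.59 (SE 0.13, limma adjusted p = 0.00137). Each probe overlapped between conditions by a small margin over all arrays, and on each slide taken alone every array of one condition lay on the same side of the other: the slide values were 0.34, 0.23 and 0.29 for the first probe and -0.73, -0.47 and -0.56 for the second.

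AGPAT1 and AGPAT2, the enzymes of the endoplasmic reticulum that make phosphatidic acid, moved in opposite directions. AGPAT1, probe A_23_P258093, was down-regulated, from control values of 2.10 to 2.34 (median 2.21) to values of 1.66 to 2.10 (median 1.81). Its log2 fold change was -0.34 (SE 0.081, limma adjusted p = 0.00274). The conditions overlapped by a small margin, with a lowest control at 2.096 and a highest value of 2.0997 in the other condition. In both conditions the 2 arrays on slide 2 were the highest. They lay at 2.34 and 2.32 for the controls and at 2.10 and 2.04 for the others. The slide values were -0.49, -0.26 and -0.28. AGPAT2, whose loss causes a congenital lipodystrophy, was up-regulated at probe A_32_P26103, from -0.79 to -0.52 (median -0.58) on the control arrays to -0.40 to 0.059 (median -0.20) on the others. The conditions were 0.12 apart, and the log2 fold change was 0.46 (SE 0.086, limma adjusted p = 0.000548).

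AGPAT3, an acyltransferase of the Golgi and endoplasmic reticulum, had 3 probes. Probe AGPAT3 A_23_P356466 fell furthest among the genes outside LPCAT1. It ran from -2.15 to -1.76 (median -1.96) on the control arrays and from -3.12 to -2.61 (median -2.95) on the others, with a gap of 0.45. The log2 fold change was -0.96 (SE 0.089, limma adjusted p = 1.36e-06), 1.94-fold lower, with -0.84, -1.07 and -0.97 on the 3 slides. Probe AGPAT3 A_24_P344711 fell by less, from -1.29 to -1.02 (median -1.17) to -1.48 to -1.26 (median -1.37), and its conditions overlapped. Its log2 fold change was -0.22 (SE 0.061, limma adjusted p = 0.00845). The third AGPAT3 probe, A_23_P218743, was not well above background on any of the 12 arrays and was not tested.

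**Figure D3:**
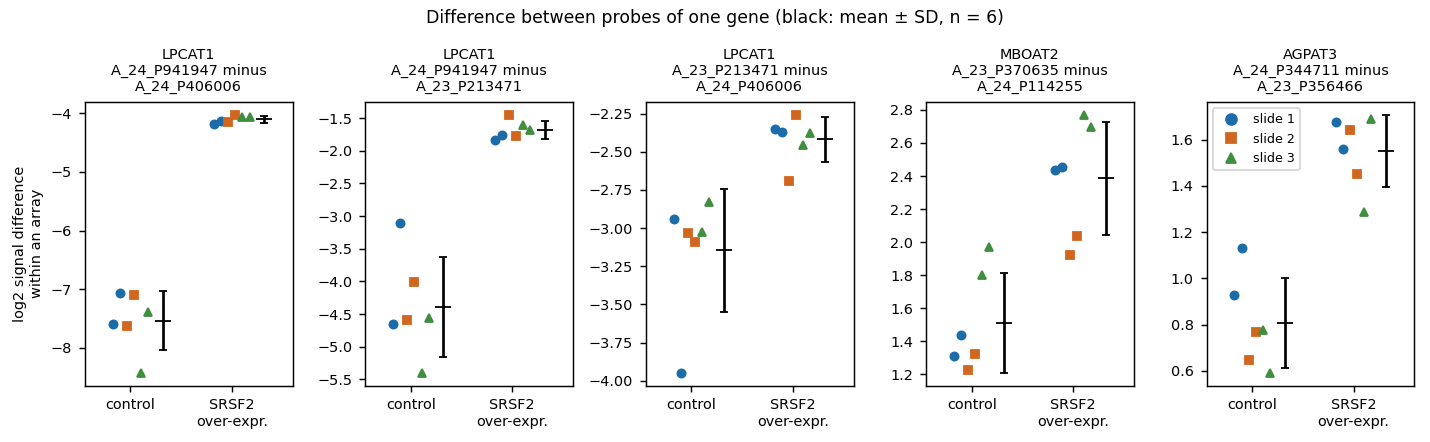
Difference between the log2 signals of a pair of probes of one gene within each array, for the 6 control arrays and the 6 arrays labelled SRSF2 over-expression; colours and symbols give the slide and black bars mean ± SD (n = 6). The difference was larger on the arrays labelled SRSF2 over-expression by 0.87 for MBOAT2 and 0.74 for AGPAT3.

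Where a gene has several probes, the difference between them within an array does not change when the same value is subtracted from every probe of that array. Quantile normalization, which is not such a scaling, can change it. This difference was tested for the 2 pairs outside LPCAT1 with a two-sided exact permutation test over the 924 arrangements of 6 arrays against 6. For MBOAT2, A_23_P370635 minus A_24_P114255 was 1.51 ± 0.30 in the controls and 2.39 ± 0.34 in the other condition (SD, n = 6 each). The change of 0.87 passed the test (exact permutation p = 0.00433, adjusted over both pairs 0.00433), although the conditions overlapped, and it was 1.07, 0.70 and 0.85 on the 3 slides. For AGPAT3, A_24_P344711 minus A_23_P356466 was 0.81 ± 0.20 and 1.55 ± 0.16, with no overlap. The change of 0.74 had an exact permutation p of 0.00216, the smallest that 6 arrays against 6 can give (adjusted over both pairs 0.00433). Thus, on these arrays, the AGPAT3 probes fell together but by unequal amounts, and the MBOAT2 probes changed in opposite directions. The AGPAT3 difference did not pass after normexp (0.39, exact permutation p = 0.0952). The MBOAT2 difference did not pass without slide 1 (0.78, exact permutation p = 0.0571). The test treats the 12 arrays as exchangeable, although arrays on the same slide deviated together from their condition means. The exact test could not pass the threshold with 1 value per slide and condition, where the smallest p is 0.1.

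For LPCAT1 the same differences are given with no test. A_24_P941947 minus A_24_P406006 was -7.53 ± 0.50 and -4.10 ± 0.06 (SD, n = 6), a measured change of 3.43. Since A_24_P941947 was above background on 1 of 6 control arrays, a bound was taken with its control values raised as above. For processed intensities the change was 2.68 or more, but it was 1.95 without background subtraction and 1.03 after normexp. A_23_P213471 minus A_24_P406006 changed by 0.73, from -3.14 ± 0.40 to -2.42 ± 0.15, so that the probes with a shared RefSeq accession also differed in how far they fell. Among all named genes with at least 2 probes called, 359 of 1890 (19.0%) had calls in both directions. On the probe sequences themselves, and on the exons they read, no information was used here, so that the transcripts behind unequal probes are not named.

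The probes most like LPCAT1 were sought among 16024 named probes with a value on every array, by Pearson correlation over the 12 arrays. With A_24_P941947 they were those of SON (A_23_P402733, r = 0.987), ZNF564 (A_24_P14328, r = 0.986) and NFYA (A_23_P501583, r = 0.984). With A_24_P406006 they were those of ZC2HC1A (A_23_P20363, r = 0.996), CAMK1D (A_32_P208120, r = 0.996) and C1QTNF9 (A_23_P400505, r = 0.995). These arrays share 2 conditions and 3 slides, and a probe that differs between conditions correlates with any other that does, so these values are a description.

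**Figure D4:**
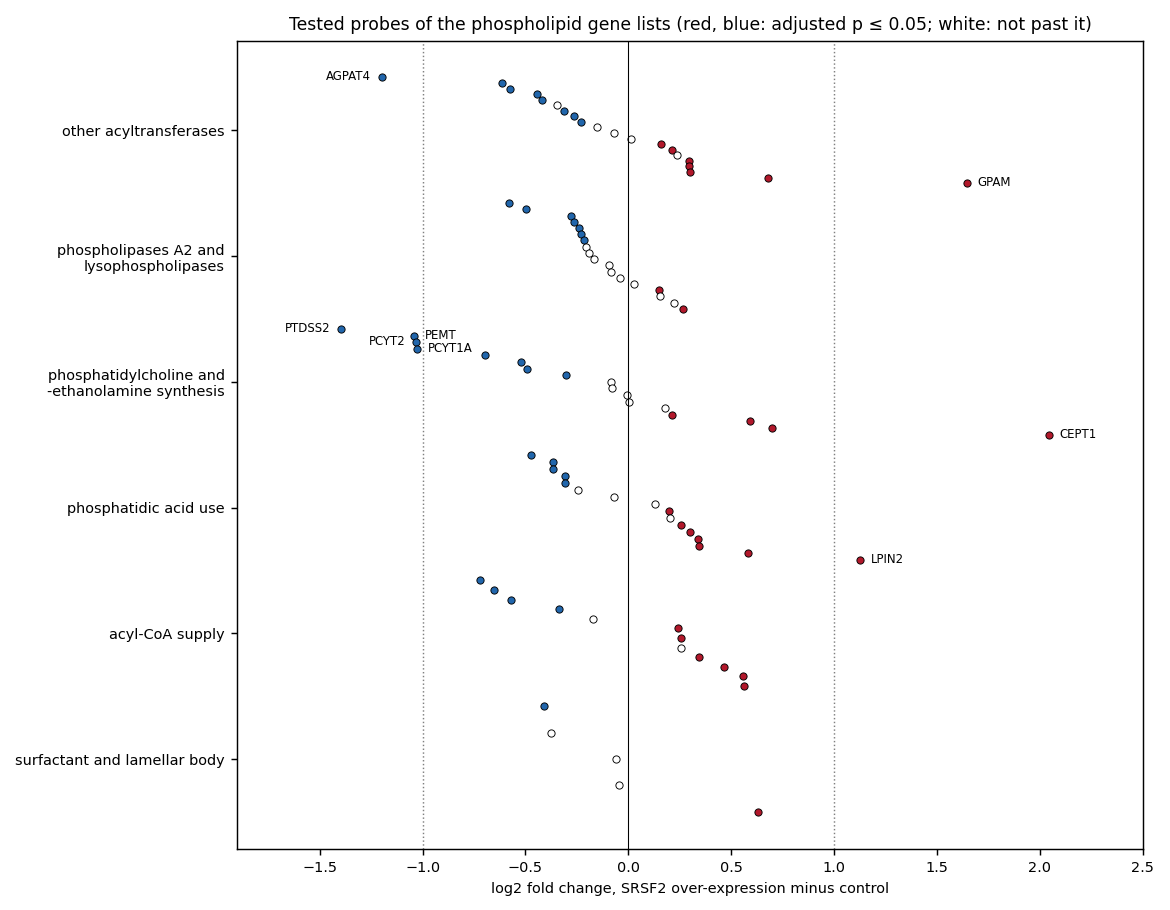
Log2 fold change of 88 tested probes in 6 lists of phospholipid genes, each point 1 probe, sorted within its list; red and blue points passed a limma adjusted p of 0.05, dotted lines mark 2-fold, and probes past both are named, of which those of GPAM and LPIN2 were above background on 1 of 6 control arrays. Rises and falls stand in every list, and the 5 probes that fell by 2-fold or more are those of AGPAT4, PTDSS2, PEMT, PCYT2 and PCYT1A.

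The acyltransferases were set beside 6 lists of genes that supply or use the same lipids, with 82 genes, 81 of them with a probe, and 88 probes of 69 genes tested. Of these probes 27 were up-regulated, 33 were down-regulated and 28 did not pass. The share called was 68.2%, beside 57.7% of all probes (29.7% up and 28% down). The counts of each list below stand against these shares. The 27 include probes of GPAM, LPIN2 and DGAT2 that were above background on enough arrays only in the condition where they were higher. The same filter was used for the shares over all probes. The median log2 fold change of the 88 probes was -0.081. Among other acyltransferases, 7 of 20 probes rose and 8 fell. GPAM, which starts glycerolipid synthesis in mitochondria, rose by 0.68 at A_24_P227069 (limma adjusted p = 3.64e-07), which was above background on all arrays. Its probe A_23_P104237 was above background on 1 of 6 control arrays and 5 of 6 others. It thus entered the test only through the brighter condition and is given as a bound, although it is counted among the 7 that rose. For processed intensities it was at least 1.85-fold higher, but it was 1.67-fold higher without background subtraction and 1.03-fold after normexp. AGPAT4 fell at both of its probes, by -1.20 at A_23_P58960 (limma adjusted p = 9.51e-07) and by -0.62 at A_32_P141768.

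Among phospholipases A2, lysophospholipases and related enzymes, 2 of 18 probes rose and 7 fell. LYPLA1 A_23_P19192 (log2 fold change -0.58) and PNPLA6 (-0.50) fell furthest among probes whose conditions did not overlap, and LYPLA2 rose by 0.27. The other LYPLA1 probe, A_23_P214091, was at -0.17 and did not pass (limma adjusted p = 0.226). In the synthesis of phosphatidylcholine and phosphatidylethanolamine, 4 of 17 probes rose and 8 fell. CEPT1, which joins the head group to diacylglycerol in the last step of both, rose by 2.05 at A_24_P233944 (limma adjusted p = 2.86e-09), with 5 of 6 control arrays above background. PCYT1A, the rate-limiting enzyme of the phosphatidylcholine branch, fell by 1.03 on the log2 scale, as did PCYT2 of the ethanolamine branch by 1.03. PEMT, which methylates phosphatidylethanolamine to phosphatidylcholine, fell by 1.04, and PTDSS2, a phosphatidylserine synthase, had a log2 fold change of -1.40 (limma adjusted p = 6.65e-11). SELENOI, an ethanolamine phosphotransferase, rose by 0.70 at A_23_P68300, while its probe A_24_P940803 was at -0.082 and did not pass (limma adjusted p = 0.234).

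In the list labelled phosphatidic acid use, 7 of 16 probes rose and 5 fell. This list is not limited to enzymes that use phosphatidic acid. It also holds PLD1, DGKA and DGKZ, which make it, and DGAT1 and DGAT2, which act on diacylglycerol. LPIN2, a phosphatidate phosphatase, rose by 0.26 at A_24_P301557, above background on all arrays. Its dim probe A_23_P208055 overlapped between conditions and was above background on 1 of 6 control arrays and 5 of 6 others. Only a bound is therefore given, at least 1.43-fold higher for processed intensities. The fold was 1.39 without background subtraction and 0.87, that is lower, after normexp. The 7 that rose include this probe and DGAT2 A_23_P53198, which was above background on 4 of 6 control arrays and 5 of 6 others. Both entered the test only through the brighter condition. PLPP3 rose by 0.58 and PLD1 by 0.34, and DGAT1, which makes triglyceride, fell by 0.47 and LPIN1 by 0.37. In acyl-CoA supply, 6 of 12 probes rose and 4 fell. Both ACSL3, an acyl-CoA synthetase, and ACOT9, an acyl-CoA thioesterase, had 1 probe in either direction: ACSL3 fell by 0.72 at A_24_P248606 and rose by 0.56 at A_24_P37319, and ACOT9 fell by 0.65 at A_23_P125624 and rose by 0.56 at A_24_P42501. Of the surfactant and lamellar body genes, 4 of 7 had a tested probe, and 1 of 5 probes rose and 1 fell. The one that rose was A_23_P90130 of NAPSA, a protease that processes surfactant protein B, by 0.63, while NAPSA A_32_P107029 was at -0.062 and did not pass (limma adjusted p = 0.767). In these lists 10 genes had at least 2 probes called, and 5 of them were called in both directions. These were ACOT9, ACSL3, AGPAT5, CDS2 and LPGAT1. Among all named genes with at least 2 probes called, 359 of 1890 (19.0%) were called in both directions.

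**Figure D5:**
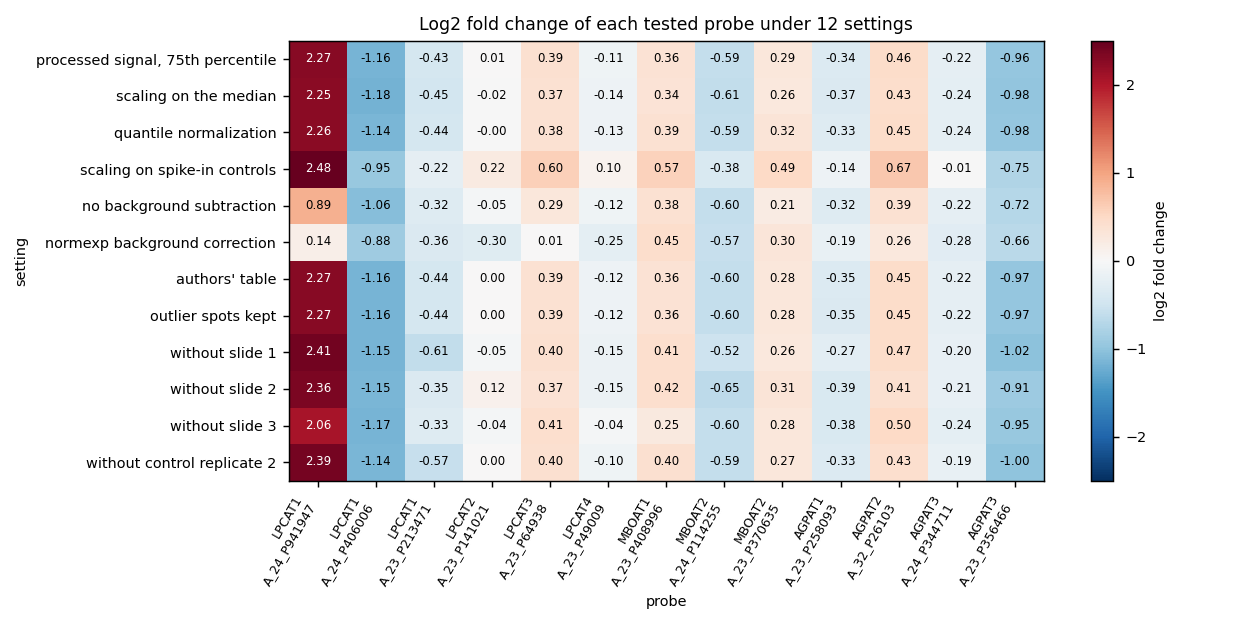
Log2 fold change of the 13 acyltransferase probes above background (columns) under 12 ways of processing the arrays (rows), written in each cell and shown as colour from blue (lower) to red (higher). LPCAT1 A_24_P941947 ranges from 2.48 with spike-in scaling to 0.14 after normexp correction, while LPCAT1 A_24_P406006 stays between -0.88 and -1.18.

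The 8 calls outside LPCAT1 depended on background correction and on scaling to spike-in controls. So did the calls over all probes, 57.7% of which passed as processed above. All 8 were kept with scaling on the median, with quantile normalization and in the authors' log2 table. Over all probes 56.8%, 57.0% and 57.4% were called under these 3 settings. After normexp correction, which moved the median change over all probes by -0.11, only the call of MBOAT2 A_24_P114255 remained (log2 fold change -0.57). Over all probes 11.6% were called after this correction. Scaling on 7 spike-in probes, which shifted that median up by 0.21, left 26.8% of all probes called. Among the 8 calls it left those of LPCAT3 (0.60), AGPAT2 (0.67) and AGPAT3 A_23_P356466 (-0.75). Under this scaling MBOAT1 (0.57, limma adjusted p = 0.0532) and MBOAT2 A_23_P370635 (0.49, limma adjusted p = 0.109) lost their calls although their fold changes were larger, and MBOAT2 A_24_P114255 (-0.38), AGPAT1 (-0.14) and AGPAT3 A_24_P344711 (-0.0082) lost theirs with smaller ones. The calls of MBOAT2 A_23_P370635 and AGPAT3 A_24_P344711 were also lost without background subtraction (limma adjusted p = 0.0593 and 0.0685), and both of them and AGPAT1 when 2 arrays from the same slide and condition were averaged. On the same averages with slide as a block, which leaves the fold changes as they were, all 8 probes passed (limma adjusted p = 0.0176, 0.0419 and 0.0148 for these 3). Over all probes 50.9% were called without background subtraction, 39.0% on the averages and 54.8% on the averages with slide as a block. Without slide 1, AGPAT3 A_24_P344711 was at -0.20 (limma adjusted p = 0.0508). Relative to the 75th percentile the share of up-regulated probes among all called was 51.5%, and relative to the spike-in probes it was 77.1%.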

How the data were processed

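RNA from H358/Tet-On/SRSF2 cells was measured on 12 one-colour arrays, 6 per condition. The authors deposited scanner output of Feature Extraction 10.7.3.1 (submitters' processing notes), in which the processed intensity of a spot is background-subtracted, together with its median intensity and flags. They also deposited a table of log2 values, which matches the log2 processed intensity scaled to the 75th percentile and then centred probe by probe on the median. The files' annotation is of build hg18 and the RefSeq gene table used for names is of GRCh38.p14, so no coordinates are given. The table named 23958 probes.

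From the processed intensities, log2 values were averaged over the spots of a probe, without spots flagged as outliers, and each array was scaled by subtracting its 75th percentile of gene probes. A probe was tested if it lacked a value on no more than 25% of arrays and if, in either condition, 5 or more of the 6 arrays were well above background. Conditions were compared with limma 3.58.1 (R 4.3.3) over all 24330 probes with Benjamini-Hochberg adjustment, in place of the study's t-test. Probe pairs and summaries were computed with Python 3.11.15, numpy 2.4.6, pandas 2.3.3 and scipy 1.17.1, and figures with matplotlib 3.10.9. The fit was tested on simulated data. Precision is limited by the number of arrays, and that of dim probes also by their signal over background.

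The member genes, gene lists and settings were chosen with earlier results of these data known. Named in the text are every member probe, list probes past 2-fold and, in each list, the 2 largest rises and falls among called probes without overlap. For likeness, the 3 most correlated probes are named. CDS2, AGPAT5 and LPGAT1 were named after their values were seen. One marker gene is not reported here.

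Alternatives were scaling on the median, on 7 spike-in probes or by quantiles, background corrected by normexp (offset 50) or not subtracted, the authors' log2 table, no filter or one of 9 of 12 arrays, flagged spots retained, the t-test of the methods, a block for slide or for replicate number, averaging 2 arrays into 1 replicate with or without a slide block, and leaving out each slide. Leaving out control 2 was added after seeing the data. The mean spot intensity is not used here, and the median stood in for it in normexp and in the setting without background subtraction. Arrays of the same number deviated together from their condition means (r = 0.28 to 0.64 over 6 pairs), as did arrays of other numbers on the same slide (0.33 to 0.65), unlike arrays of other slides (-0.48 to -0.05).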

Additional observations from a re-analysis of the deposited data

Results flagged for a closer look

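Of 28 groups of 6 arrays tested for a single array far from the rest, 3 held one, where chance gives about 1 in 20. LPCAT1 A_23_P213471 lay at -1.82 on control 2, below the other control arrays. MBOAT1 A_23_P408996 lay at 1.57 on the same array, control 2, above the other control arrays. AGPAT3 A_23_P356466 lay at -2.61 on array 5 labelled SRSF2 over-expression, above the other arrays of that condition.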

How the results depend on the processing

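Of the 10 acyltransferase probes outside LPCAT1, 8 were called in the main setting, 3 with spike-in scaling, 1 after normexp and 5 with the mean of 2 arrays as a replicate (8 with slide as a block on those means). No probe passed 2-fold except 1 without slide 1, AGPAT3 A_23_P356466 (-1.02). Over all probes, 14042 calls became 6528 with spike-in scaling, 2819 after normexp and 9493 with the mean of 2 arrays (13328 if slide was a block). The 1702 calls at 2-fold became 328 after normexp and 798 without background subtraction. The 60 calls in the gene lists became 16 with spike-in scaling, 13 after normexp and 36 with the mean of 2 arrays (53 if slide was a block). The LPCAT1 difference of 3.43 (A_24_P941947 minus A_24_P406006) was 1.03 after normexp and 1.95 without background subtraction, and that of 2.71 (A_24_P941947 minus A_23_P213471) was 0.51 and 1.21. Without slide 1 the MBOAT2 difference was 0.78 (exact permutation p = 0.0571, smallest possible 0.0286), and after normexp the AGPAT3 difference was 0.39 (exact permutation p = 0.0952). The cause of these shifts was not tested. LPCAT2, called under no setting, was negative after scaling on the median (-0.016), quantile normalization (-0.0043), normexp (-0.30), no background subtraction (-0.049), without slide 1 (-0.051) and without slide 3 (-0.043). LPCAT4 was positive with spike-in scaling (0.096). With the replicate block, 8 acyltransferase probes and 15997 of all probes were called.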
